A study of Oryza sativa with 4 samples.

Results

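ABA8OX1 (CYP707A5) and ABA8OX2 (CYP707A6), 2 of the 3 rice genes for ABA 8'-hydroxylase, differed in their change after PEG treatment: ABA8OX2 was over 2-fold higher in both genotypes, while ABA8OX1 was over 2-fold lower in the RNAi line and lower by less than 2-fold in WT. They were chosen by name: each is the gene whose symbol or synonyms hold that name in the probe set annotation and the RefSeq gene table, and each was paired with 1 probe set. They are 2 of the 17905 genes that the annotation paired with a probe set. The samples were leaves of rice seedlings, cultivar ZH11 (Zhonghua 11), either wild type (WT) or carrying an RNA interference construct against *OsABA8ox3*, the third gene of the family. Sampling was before (0 h) and 2 h into treatment with 20% PEG, a polymer that makes water harder for roots to take up and so mimics drought. 1 RNA sample per condition was hybridized, giving 4 Affymetrix Rice Genome Arrays. The methods place the seedlings at the four-leaf stage and name the line RNAi-9, which is a single transformed line with a hairpin made from part of the *OsABA8ox3* coding region, and the promoter of the hairpin is not given in the sources used here. With 1 line, effects of the silencing and of that line cannot be told apart. The methods also list ZH11 transformed with the vector among the plants used as WT, and the array labels do not say which WT was hybridized. No array at 2 h without PEG is among the 4, so PEG and elapsed time cannot be told apart either. RNA came from leaves in bulk, in which fewer cells of a type and less RNA per cell cannot be told apart. The median log2 signal of an array was 5.32 to 5.45, and 762 to 993 probe sets per array were listed at 0.

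ABA is the hormone that closes stomata and switches on protective genes when a plant dries. Its level is set by synthesis from carotenoids, where 9-*cis*-epoxycarotenoid dioxygenase (NCED) makes the cut that leads to xanthoxin, and by breakdown. ABA 8'-hydroxylases are cytochrome P450 enzymes of the CYP707A family that hydroxylate ABA at the 8' position, after which it turns into phaseic acid, and this is the main route of ABA breakdown. Plants carry several such genes, and they differ in the tissues and situations in which they are used.

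The third gene, ABA8OX3 (CYP707A7), is listed in RefSeq on chromosome 9, while ABA8OX1 is on chromosome 2 and ABA8OX2 on chromosome 8. ABA8OX3 was paired with 0 probe sets, so no value could be assigned to its transcript, and it could not be used to check the genotype labels. The annotation paired 22436 probe sets with 1 gene, while the arrays hold 57258 rice probe sets. One for ABA8OX3 may thus be among the unpaired ones. The probe set of ABA8OX1 (NCBI gene 9269675), whose name ends in _at, is of the kind designed for a single transcript. That of ABA8OX2 (NCBI gene 4345810), whose name ends in _s_at, is of the kind whose probes can match more than 1 transcript, and whether transcripts of another gene added to its signal was not tested. Signals are given in log2 and are set side by side only within a probe set, because probe sets differ in how strongly they bind. The labelled tissue was checked on named genes of photosynthesis, which marks leaves. Of 13 probe sets for Rubisco small subunit, light harvesting and photosystem names, 10 had a mean log2 signal of 12 or more, and 2 had a mean under 7. Of 14 probe sets for seed storage proteins, 13 had a mean under 7 and 1, of GLUA2, had a mean of 10.3.

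ABA8OX1 had a log2 signal of 11.83 in WT at 0 h, 11.05 in WT at 2 h of PEG, 12.91 in RNAi-9 at 0 h and 10.94 in RNAi-9 at 2 h. The RNAi-9 array at 0 h was the highest of the 4, and both arrays after PEG were the lowest and lay close together. The order from high to low was RNAi-9 at 0 h, WT at 0 h, WT at 2 h and RNAi-9 at 2 h. ABA8OX2 had a log2 signal of 7.20 in WT at 0 h, 8.31 in WT at 2 h, 7.75 in RNAi-9 at 0 h and 9.07 in RNAi-9 at 2 h. Here both arrays after PEG were above both arrays at 0 h, and RNAi-9 was above WT at each time. With 1 array per condition there is no spread between replicates, so no step in either order has a test. All 8 of these signals were above 6, a level below which signals differed widely between arrays.

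**Figure D1:**
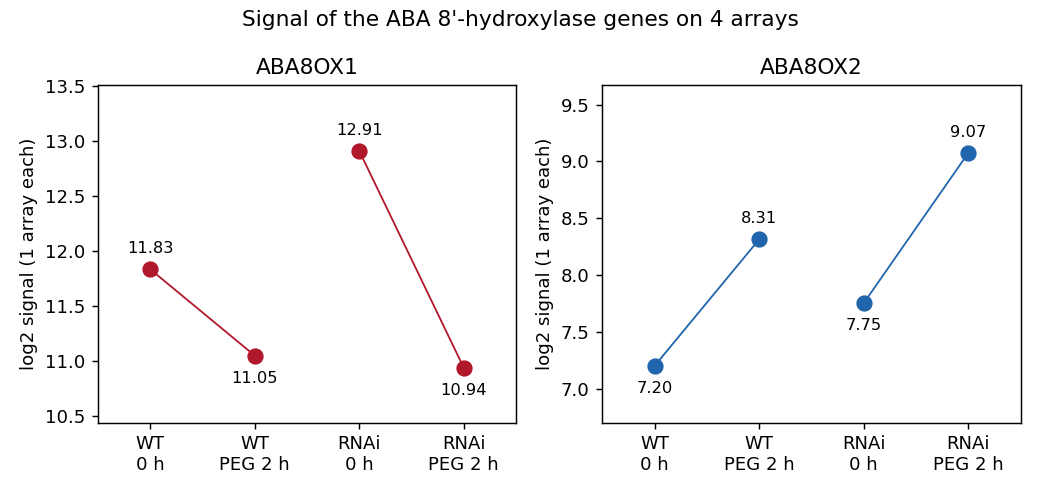
Log2 signal of ABA8OX1 (left) and ABA8OX2 (right) on the 4 arrays, 1 point per array, with a line joining the 0 h and 2 h arrays of each genotype. ABA8OX1 went from 12.91 to 10.94 in RNAi-9 and, in WT, from 11.83 to 11.05, while ABA8OX2 went up from 7.75 to 9.07 and from 7.20 to 8.31.

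The first question was how the ABA 8'-hydroxylase genes other than ABA8OX3 changed in leaves during 2 h of PEG. By qRT-PCR, the study found *OsABA8ox1* hardly detectable in seedlings. It also reported no obvious change of the breakdown genes during dehydration, apart from a slight rise of *OsABA8ox3*. The array values given here differ from that report, and the reason was not tested. A probe set was counted as higher or lower when it differed by over 2-fold, which is 1 in log2. In WT, ABA8OX2 was 2.16-fold higher after PEG, a log2 change of 1.11, and passed this limit, though its change was 0.97 with an offset of 32 added to the linear signals. ABA8OX1 was 1.73-fold lower, a log2 change of −0.79, and did not pass it. For 1 of the 2 genes being higher in WT, the background was 21.9% of all 57258 rice probe sets, or 11.6% of the 20916 with a signal of at least 6 on all 4 arrays. For 0 of 2 being lower it was 21.0% and 14.2%. A change the size of that of ABA8OX2 was thus common on these arrays: 10.2% of the 20916 probe sets rose more, and so did 11.7% of the 3679 whose mean signal lay within 0.5 of that of ABA8OX2.

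In RNAi-9, ABA8OX2 was higher after PEG by a log2 change of 1.32 and ABA8OX1 was 3.93-fold lower, a log2 change of −1.98, so both passed 2-fold and did so in opposite directions. The share of probe sets over 2-fold higher in RNAi-9 was 20.6% of all and 10.0% of those at 6 or more on all arrays, and the share over 2-fold lower was 21.2% and 13.2%. Of the 20916 probe sets, 1.25% fell further than ABA8OX1 in RNAi-9, whereas 22.5% fell further than ABA8OX1 in WT. Of the 2443 probe sets with a mean signal within 0.5 of that of ABA8OX1, 1.02% fell further in RNAi-9 and 14.4% in WT. For ABA8OX2 in RNAi-9, 6.87% of the 20916 rose more. Each of the 2 genes kept 1 direction in both genotypes, like most probe sets: 54.3% of the 20916 were lower after PEG in both genotypes, 28.6% were higher in both and 17.0% went opposite ways.

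**Figure D2:**
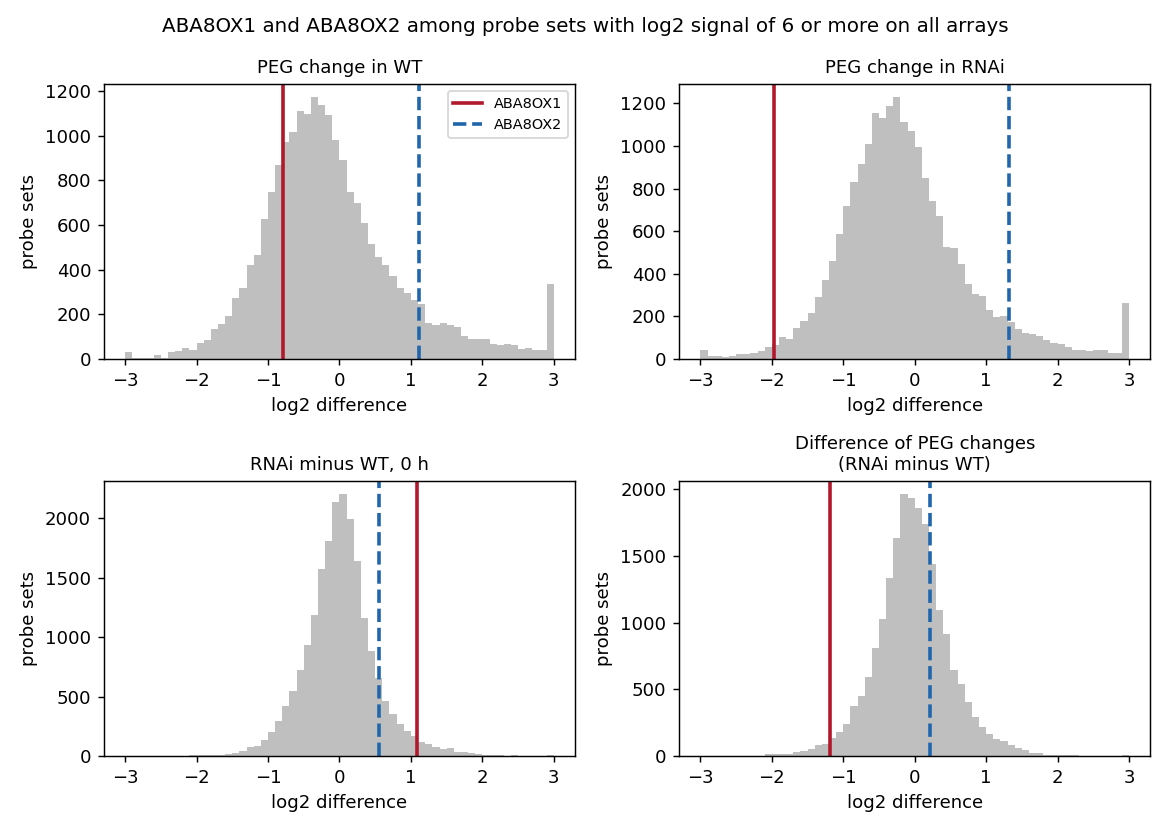
Number of probe sets (vertical axis) by log2 difference (horizontal axis) for 20916 probe sets at 6 or more on all arrays, with differences beyond 3 pooled in the end bars. The vertical lines mark ABA8OX1 (solid) and ABA8OX2 (dashed), and ABA8OX1 lies towards the lower end for the change in RNAi-9 (−1.98) and for the difference of changes (−1.19).

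The next question was whether the genes stood at another level where ABA8OX3 was targeted. Before PEG, the signal of ABA8OX1 in RNAi-9 was 2.11-fold that in WT (log2 difference 1.08), and ABA8OX2 was 1.47-fold higher (0.55). Over 2-fold higher at 0 h was thus counted for 1 of the 2 genes, against 18.4% of all rice probe sets and 3.82% of those at 6 or more on all arrays. Of the 20916 probe sets, 3.18% stood further above WT than ABA8OX1 and 11.5% further than ABA8OX2. The median size of the difference at 0 h over these probe sets was 0.27. The count for ABA8OX1 lay near the limit, and with the arrays scaled to the median of all rice probe sets its difference was 0.96, under 2-fold.

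After PEG, ABA8OX1 was at nearly the same signal in both genotypes, with RNAi-9 lower by a log2 difference of −0.11, and 40.8% of the 20916 probe sets were further below WT than that. ABA8OX2 was 1.69-fold higher in RNAi-9 at 2 h (0.76), and 5.97% of the probe sets stood further above WT. When the scale of each array was set by 9 hybridization controls, which are bacterial and phage RNAs added before hybridization, these differences were −0.52 for ABA8OX1 and 0.35 for ABA8OX2. The median over the same 20916 probe sets then moved from −0.02 to −0.43, so both genes shifted with the array as a whole. The hybridization controls were brightest on the RNAi-9 array at 2 h, with a mean log2 signal of 12.69 against 12.28 to 12.42 on the other 3.

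Set against its own 0 h array, ABA8OX1 changed by −1.98 in RNAi-9 and by −0.79 in WT, a difference of changes of −1.19 in log2. The share of probe sets whose change was over 2-fold lower in RNAi-9 than in WT was 21.7% of all and 3.28% of those at 6 or more on all arrays, and 1.83% of the latter lay below ABA8OX1. The difference of changes is the genotype difference at 2 h (−0.11) less that at 0 h (1.08), so the 0 h term is the larger of the 2. With the WT 0 h array as the baseline for RNAi-9, ABA8OX1 changed by −0.90 in place of −1.98 and was no longer past 2-fold. That value follows from the 0 h difference itself, so it does not show which of the 0 h arrays stands apart, and with 1 array per condition this cannot be told. Of the 800 probe sets at 6 or more that were over 2-fold higher in RNAi-9 at 0 h, 348 (43.5%) were within 1.5-fold of WT at 2 h, as ABA8OX1 was, and 273 (34.1%) were still over 2-fold higher. Over all probe sets at 6 or more, 3.3% were over 2-fold higher in RNAi-9 at 2 h. Their median size of difference at 2 h was 0.28 in log2, which is under 1.5-fold, so most of them were within 1.5-fold of WT. Closeness to WT at 2 h was thus common and not particular to ABA8OX1 or to the 800. The 800 were picked by their 0 h difference, so a smaller one at 2 h follows in part from that choice.

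For ABA8OX2 the difference of changes was 0.21, smaller than the median size of 0.30 over the 20916 probe sets, and 29.4% of them lay higher. It became −0.14 when the hybridization controls set the scale of each array, so no direction is given for it. Between the genotypes, ABA8OX2 had a signal higher in RNAi-9 at both times, by 0.55 and 0.76. It shared this with many probe sets that responded like it: of 1650 at 6 or more that rose over 2-fold in both genotypes, 752 (45.6%) were higher in RNAi-9 at both times. The share over all 20916 was not counted, so whether this trait goes with a rise after PEG was not tested.

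**Figure D3:**
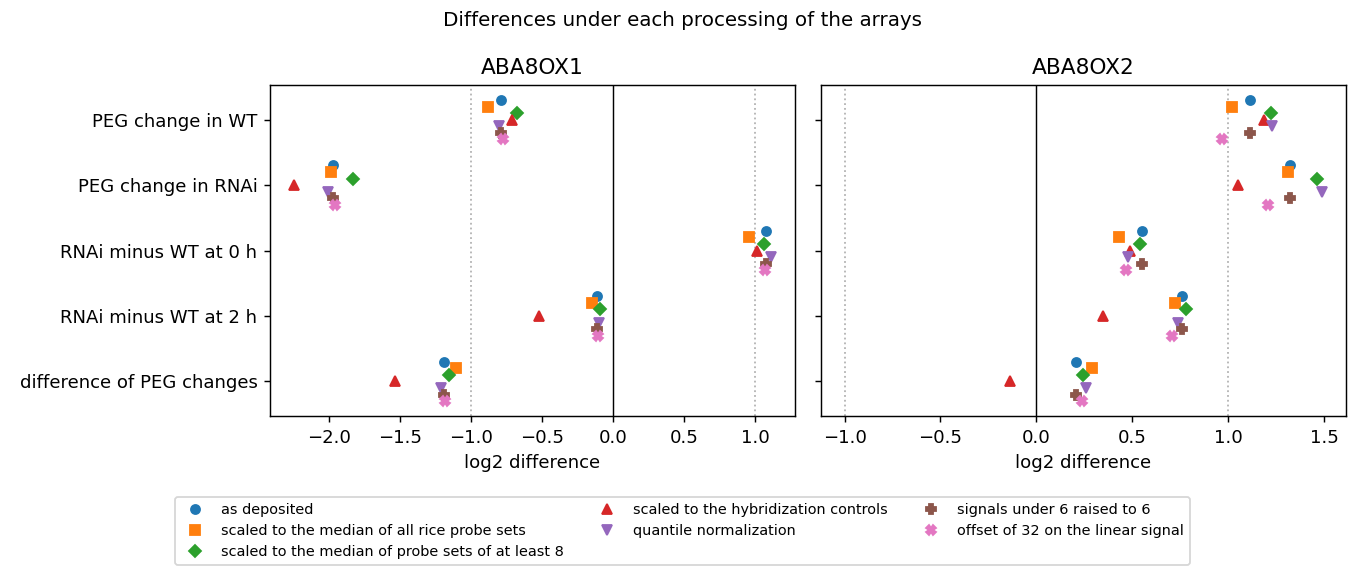
Log2 differences (horizontal axis) of ABA8OX1 (left) and ABA8OX2 (right) for each comparison, with 1 symbol for each processing of the arrays and dotted lines at 2-fold. ABA8OX1 was below 0 for the change after PEG in both genotypes under each of them, and the difference of changes of ABA8OX2 went from 0.21 to −0.14 when the hybridization controls set the scale.

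Since no array was repeated, the nearest thing to a second measurement is another probe set of the same gene on the same array. For 1745 genes with 2 or more probe sets at 6 or more, the range between them had a median of 0.32 for the change in WT, 0.34 for the change in RNAi-9, 0.26 for the genotype difference at 0 h and 0.34 for the difference of changes. The 90th percentile of the range was 1.15 for the change in WT, 0.78 at 0 h and 0.95 for the difference of changes, and for the change in RNAi-9 it lay below both members' values. The values of ABA8OX1 in RNAi-9 (−1.98), at 0 h (1.08) and for the difference of changes (−1.19) were larger than the 90th percentile, and its change in WT (−0.79) was not. The rise of ABA8OX2 in RNAi-9 (1.32) was larger and its rise in WT (1.11) was not. Probe sets on 1 array share the leaf sample and the hybridization, so these ranges leave out the spread between plants and between arrays.

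The breakdown genes were then set beside the other genes of ABA metabolism, to see which sides of the pathway moved. The list held 14 genes of ABA synthesis and breakdown by locus, of which 7 could be paired with a probe set, and the ABA receptors, of which 1 could be paired. NCED1, NCED2, NCED3, NCED5, ABA2, Os07g0281700 and ABA8OX3 were not paired and were not analysed here. Over all 8 genes, 4 were over 2-fold higher in WT and 0 lower, and 3 were higher in RNAi-9 and 1, ABA8OX1, lower. Over all rice probe sets 21.9% were higher and 21.0% lower in WT, and 20.6% and 21.2% in RNAi-9, but the count of higher genes is raised by how 3 of the 8 were located, as given next. In WT the median change was 0.95, against −0.10 over all rice probe sets, and in RNAi-9 it was 0.48 against −0.13. These medians include the same 3 genes, so they are raised in the same way and are not read as a result. With signals under 6 raised to 6 the medians were 0.89 and 0.87, and the counts of higher genes became 3 (WT) and 4 (RNAi-9). The gap between the medians was thus not kept. Genes with several probe sets entered with their mean.

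Of these 8, 3 got their locus from the part of the study's supplementary tables that lists probe sets higher in both genotypes on these same arrays, so the direction of these 3 is no independent evidence. A gene annotated there as 9-*cis*-epoxycarotenoid dioxygenase, Os07g05940, went from 7.05 to 13.47 in WT (86.0-fold), and in RNAi-9 its signals were 6.68 and 14.19 (182-fold). Its signal was thus far higher on both arrays after PEG, and no other gene of the list changed as much. Os07g18120, annotated there as an abscisic aldehyde oxidase, an enzyme of the last step of synthesis, had 4 probe sets. Of these, 3 rose by 1.12 to 1.56 in WT and by 1.32 to 1.67 in RNAi-9. The fourth had low signals, 3.55 and 3.98 in WT and 4.55 in RNAi-9 at 0 h, and was listed at 0 in RNAi-9 at 2 h, which pulled the mean for this gene below 0 there. The probe set matched by locus Os01g0128300 alone, with no function in those tables, rose by 3.03 and 3.21.

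The other genes of the list moved less. ZEP, the zeaxanthin epoxidase gene that acts early in ABA synthesis, had signals of 12.13 and 12.97 in WT and 12.20 and 12.87 in RNAi-9, changes of 0.83 and 0.66. MCSU3, a molybdenum cofactor sulfurase gene whose product makes the cofactor that aldehyde oxidases need, changed by 0.28 and −0.17 on its brighter probe set. On its dimmer one it went from 4.52 to 5.52 in WT, just under 2-fold, and changed by 0.75 in RNAi-9. Neither gene was past 2-fold on any probe set. The receptor gene PYL5 was lower after PEG, with log2 changes of −0.84 in RNAi-9 and −0.32 in WT, neither past 2-fold in the deposited signals. Relative to WT, RNAi-9 stood at 0.34 at 0 h and at −0.19 at 2 h. Its 4 signals of 12.09, 11.77, 12.43 and 11.58 came in the same order over the arrays as those of ABA8OX1, with smaller steps.

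**Figure D4:**
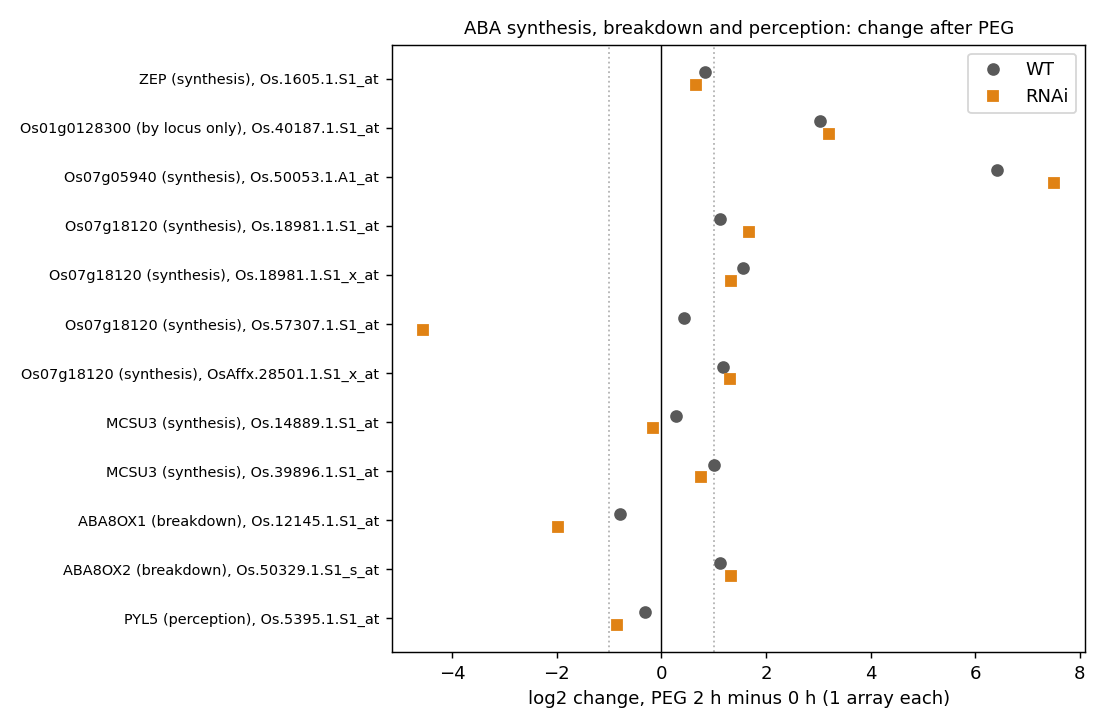
Log2 change after PEG (horizontal axis, 2 h minus 0 h, 1 array each) in WT (circles) and RNAi-9 (squares) for each probe set of the ABA list, with dotted lines at 2-fold. Os07g05940 lies farthest right at 6.43 and 7.51, ABA8OX2 is at 1.11 and 1.32 and ABA8OX1 at −0.79 and −1.98.

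As members of the cytochrome P450 superfamily, the 2 genes were also set beside the other P450 genes with a CYP name and beside enzymes that inactivate other hormones. Of 27 other P450 genes, 3 were over 2-fold higher and 6 lower in WT, and 5 higher and 5 lower in RNAi-9. In the deposited signals these counts were near or below the shares over all rice probe sets, 21.9% and 21.0% in WT and 20.6% and 21.2% in RNAi-9. The median of their changes was −0.03 in WT, and for RNAi-9 it was 0.002. Many had low signals, and with signals under 6 raised to 6 the counts were 2 and 4 in WT and 2 and 3 in RNAi-9. Over all 57258 rice probe sets that setting gave 3102 higher and 3517 lower in WT, and 2899 and 3250 in RNAi-9. The shares above are thus no background for these smaller counts, and a difference from the new background was not tested.

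Cytokinin oxidases, coded by CKX genes, break down cytokinin and are the counterpart of ABA 8'-hydroxylases for that hormone. P450 and CKX genes were ranked together by the smaller of their changes in the 2 genotypes, with signals under 6 raised to 6, and CKX4 and CKX5 came first among those that rose. CKX4 went from 9.17 to 11.19 in WT, and in RNAi-9 from 9.34 to 11.23, changes of 2.01 and 1.90. CKX5 went from 7.11 to 9.02 and from 8.01 to 9.89, changes of 1.91 and 1.88. It was higher in RNAi-9 at both times, by 0.90 and 0.87, and CKX4 was so by 0.16 and 0.05. Some P450 genes that fell were also higher in RNAi-9 at both times, so this is no trait of the genes that rose. Of the 5 CKX genes paired, these 2 were over 2-fold higher in both genotypes, and CKX1 and CKX3, with all signals under 6, were over 2-fold lower in RNAi-9 alone. Over all 57258 rice probe sets, 5333 were over 2-fold higher in both genotypes. Those over 2-fold lower in RNAi-9, whatever their change in WT, made up 21.2%. Of GA2OX genes, which inactivate gibberellins, 0 were paired.

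Next in this ranking was CYP74A1, which encodes the allene oxide synthase AOS1 of jasmonate synthesis, with signals of 8.95 and 10.87 in WT (change 1.91) and 9.65 and 10.89 in RNAi-9 (change 1.24). In WT alone CYP85A1, a brassinosteroid synthesis gene, rose more, by 2.12, with 1.08 in RNAi-9. Among those that fell, CYP88A5, CYP76M7 and CYP734A6 came first by the same ranking, while in WT alone CYP724B1 (−1.99, with −0.66 in RNAi-9) fell more than each of them. CYP88A5 encodes ent-kaurenoic acid oxidase (KAO), which makes gibberellins, and went from 12.19 to 10.41 in WT and, in RNAi-9, from 11.79 to 10.57, changes of −1.78 and −1.22. CYP76M7, of diterpenoid synthesis, changed by −0.95 and −2.49, or by −0.95 and −2.16 with signals under 6 raised to 6. CYP734A6, of the family that inactivates brassinosteroids, changed by −1.45 and −0.91. The fall of ABA8OX1 in RNAi-9 (−1.98) was larger than that of CYP88A5 there, while in WT its change (−0.79) was smaller than that of any of these 3.

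Likeness of pattern was measured over the 4 arrays, as the root mean square difference between the log2 signals after each probe set's own mean had been subtracted, among 2269 probe sets of named genes at 6 or more on all arrays. The median of this measure was 0.79 for ABA8OX1 and 0.80 for ABA8OX2. The genes most like ABA8OX1 were NAAT1 (0.09), a nicotianamine aminotransferase gene of iron uptake, PIN5A (0.12), named as an auxin transport gene, and PMEI28 (0.12), named as an inhibitor of pectin methylesterase. They were followed by XBOS35 (0.16) and SWEET14 (0.19), a sugar transporter gene. NAAT1 went from 9.63 to 8.99 in WT, and in RNAi-9 from 10.59 to 8.79. That it was highest in RNAi-9 at 0 h and close between the genotypes at 2 h follows from its choice by likeness to ABA8OX1.

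The genes most like ABA8OX2 were RF2b (0.05), a bZIP transcription factor gene, RDR4 (0.08), an RNA-dependent RNA polymerase gene, CAD2 (0.10), a cinnamyl alcohol dehydrogenase gene of lignin synthesis, GLU1 (0.11), an endo-1,4-beta-glucanase gene, and KIN7K (0.11), a kinesin gene. RF2b went from 7.74 to 8.85 in WT, and in RNAi-9 from 8.32 to 9.74. Each of these 5 genes was higher after PEG in both genotypes and higher in RNAi-9 at both times. This follows from their choice by likeness to ABA8OX2 on these same arrays, so it is no separate evidence. With 4 arrays, many probe sets share such a shape, and likeness of shape on 4 points describes only these arrays.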

How the data were processed

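Total leaf RNA was labelled and hybridized to Affymetrix Rice Genome Arrays, 1 array per condition and 4 in all. Signals were collected and scaled by the authors in GCOS (the submitters' processing notes name MAS5, with no version) and deposited as log2 signal. The scaling target is not given in the sources used here. All 57258 rice probe sets were analysed and 123 control probe sets left out. Differences were taken between deposited log2 signals with no filter. A 2-fold difference counted as changed. With 1 array per condition no test was run, and precision is limited by having so few arrays. The scripts (Python 3.11.15, pandas 2.3.3, numpy 2.4.6) were tested on simulated data.

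Probe sets were named from the platform annotation (22436 paired with 1 gene) and the RefSeq table of assembly ASM3414082v1, used for names and gene order only. Sequence features of the family were not analysed. The supplementary tables, partly truncated, gave loci for list genes and no values. Their fold changes were not used. The members and lists were chosen with earlier results of these data known. The rule for named genes took the 2 members, the ABA list, the 3 largest rises and the 3 largest falls in both genotypes among P450, GA2OX and CKX genes with signals under 6 raised to 6 (ranked by the smaller change of the 2 genotypes), and the 5 named genes most like each member in pattern. Alternatives were 3 shifts of the arrays to a common level (median of all rice probe sets, median of those of at least 8 on all arrays, mean of 9 hybridization controls), quantile normalization, a floor of 6, an offset of 32 on the linear signal, limits of 1.5-fold and 3-fold, probe sets of at least 6 only, the WT 0 h array as baseline, and no probe sets ending in _s_at or _x_at. A member's value counted as moved when it crossed 2-fold, moved by over 1.5-fold or changed sign below 2-fold.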

Additional observations from a re-analysis of the deposited data

Results flagged for a closer look

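With 1 array per condition, a difference in direction between genotypes or between times was picked out whenever the signs were opposite, and none of these differences was tested. For ABA8OX1 the log2 signal in RNAi-9 minus that in WT was 1.08 at 0 h and −0.11 at 2 h, a gap of −1.19 in log2. For Os07g05940, the 9-*cis*-epoxycarotenoid dioxygenase gene, it was −0.37 at 0 h and 0.71 at 2 h, a gap of 1.08. A low probe set of Os07g18120 changed by 0.43 in WT but by −4.55 in RNAi-9 after PEG, a gap of −4.98, with a genotype difference of 1.01 at 0 h and −3.98 at 2 h, and it is listed at 0 in RNAi-9 at 2 h. MCSU3, on its brighter probe set, changed by 0.28 in WT but by −0.17 in RNAi-9, a gap of −0.45, and its genotype difference also changed sign, from 0.21 at 0 h to −0.24 at 2 h. The genotype difference of PYL5 was 0.34 at 0 h and −0.19 at 2 h, a gap of −0.53. ZEP (0.07 and −0.10, a gap of −0.17) and the probe set of Os01g0128300 (−0.10 and 0.09, a gap of 0.18) had opposite signs at differences of at most 0.10 in size.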

How the results depend on the processing

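Of the values of ABA8OX1 and ABA8OX2 under the alternatives, 58 stayed on the same side of 2-fold, in the same direction and within 1.5-fold, 4 did not, and 0 reversed a value past 2-fold. These 4 were the difference of ABA8OX1 at 0 h with the arrays scaled to the median of all rice probe sets (0.96), its change in RNAi-9 against WT at 0 h (−0.90), the change of ABA8OX2 in WT with the offset of 32 (0.97), and its difference of changes with the hybridization controls (−0.14). The 58 include the values with the floor of 6, which could not move, since all signals of the 2 genes were above 6. At 3-fold, ABA8OX1 in RNAi-9 still counted as lower and ABA8OX2 no longer counted as higher in either genotype. Of the ABA list, leaving out probe sets that can match several transcripts, that of ABA8OX2 among them, gave 2 genes higher in WT and 2 lower in RNAi-9, since Os07g18120 then rested on fewer probe sets. The count lower in RNAi-9 was also 2 with the hybridization controls, where the gene beside ABA8OX1 was PYL5 and not Os07g18120. Of the other P450 genes, 2 were higher in RNAi-9 both with the floor of 6 and with the hybridization controls, and 3 were lower with the floor. Over all 57258 rice probe sets, 2899 were higher and 3250 lower in RNAi-9 with the floor, and 9729 were higher with the hybridization controls. The share of probe sets past 2-fold depends on low signals, such as 18.4% of all against 3.82% of those at 6 or more for RNAi-9 above WT at 0 h. Without replicate arrays, neither the spread between plants nor that between hybridizations is known.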

Other observations

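In the RefSeq gene order, TRAB1, a bZIP factor gene of ABA signalling, lies 3 places from ABA8OX2, and the alpha-amylase gene AMY3D lies 5 places away on the other side. These genes were looked at after the values had been seen. TRAB1 went from 10.54 to 12.12 in WT, and in RNAi-9 from 10.46 to 12.45. The brighter of 2 probe sets of AMY3D rose by 2.15 in WT, from 6.34 to 8.49, and by 2.32 in the RNAi line, from 7.35 to 9.68. Of the 10 nearest genes of ABA8OX2, 5 were paired with a probe set and 4 of these had one at 6 or more on all arrays, of which 2 were higher after PEG in both genotypes and 1 was lower in both. Of the 10 nearest genes of ABA8OX1, 7 were paired and 5 had a probe set at 6 or more, and these 5 were lower after PEG in both genotypes. Of the 20916 probe sets at 6 or more, 54.3% were lower in both and 28.6% higher in both.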
